A study of Mus musculus with 4 samples.

Results

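The genes described here are the mucins and the glycosyltransferases, glycan-trimming mannosidases and sulfotransferases that build sugar chains on mucins, other glycoproteins, glycolipids and proteoglycans. They were taken by gene symbol (the Muc, Galnt, B3g, B4gal, St3gal, St6gal, St8sia, Fut, Gcnt, Chst, Mgat, Hs2st, Hs3st, Hs6st, Ndst, Man1 and Man2 series) from a deposited table of genes that differed between wild-type and Elf4 knockout (Elf4-KO) mice. The rule found 46 of the 4121 genes in the table, against 143 protein-coding genes with such symbols in the GENCODE M21 annotation (32.2%), beside 3833 of all 22028 annotated protein-coding genes (17.4%). Galnt17, among the 143, stands in the table under an older symbol and is not counted in the 46. RNA was sequenced from colon of C57BL/6 mice at 8 weeks of age, 2 samples per genotype, and all 4 samples came from mice given 3% dextran sulfate sodium (DSS), which damages the colon epithelium, and sampled from inflamed distal colon on day 6. The table gives 1 FPKM value (fragments scaled to transcript length and to library size) for each genotype, so values have no SD and no n, no test between genotypes could be run here, and read depth is unknown. Every gene in it had passed the authors' own call, a q of at most 0.05 and a difference of at least 2-fold by the values. Rose and fell therefore follow that call. For genes absent from the table no value was analysed. Of the 46 members, 37 had the smallest q in the authors' deposited table, 0.000372, and for the other 9 the q is given beside the gene. No untreated mice were included, so every value compares colitis in one genotype with colitis in the other.

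Mucins are large proteins whose serine- and threonine-rich stretches carry dense O-linked sugar chains. Goblet cells secrete gel-forming mucins, chiefly Muc2 in the colon, which build the mucus layer, while enterocytes carry membrane-bound mucins on their apical surface. Polypeptide GalNAc transferases start an O-glycan by adding N-acetylgalactosamine, core and branching enzymes extend it, and sialyl-, fucosyl- and sulfotransferases cap it. N-glycans are instead transferred whole in the endoplasmic reticulum and then trimmed and rebuilt in the Golgi, and proteoglycans carry long sulfated chains such as chondroitin sulfate and heparan sulfate.

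The listed mucin genes and most listed O-glycan synthesis genes fell in the knockout colon, whereas the listed genes for sulfation of proteoglycan chains rose. Of the 46 members, 31 (67.4%) were lower and 15 (32.6%) higher in the knockout, beside 52.0% lower and 48.0% higher among all 4121 listed genes. At least a 4-fold difference was seen in 23 lower members (50%) and 2 higher members (4.35%), beside 24.5% and 12.9% of all listed genes. The median log2 ratio of knockout to wild type, computed after adding 1 to each FPKM, was -1.76 for the members and -0.76 for all listed genes. Split by the glycan they build, 5 of 5 mucins, 13 of 17 enzymes of O-GalNAc glycans, 8 of 9 enzymes shared by several carriers and 3 of 5 N-glycan enzymes were lower. Of 4 glycolipid enzymes 2 were lower, and 5 of 5 proteoglycan enzymes were higher. The members were taken by gene symbol, with earlier results of these data known. Because the table holds only called genes, these counts describe the listed genes and not the whole families.

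**Figure D1:**
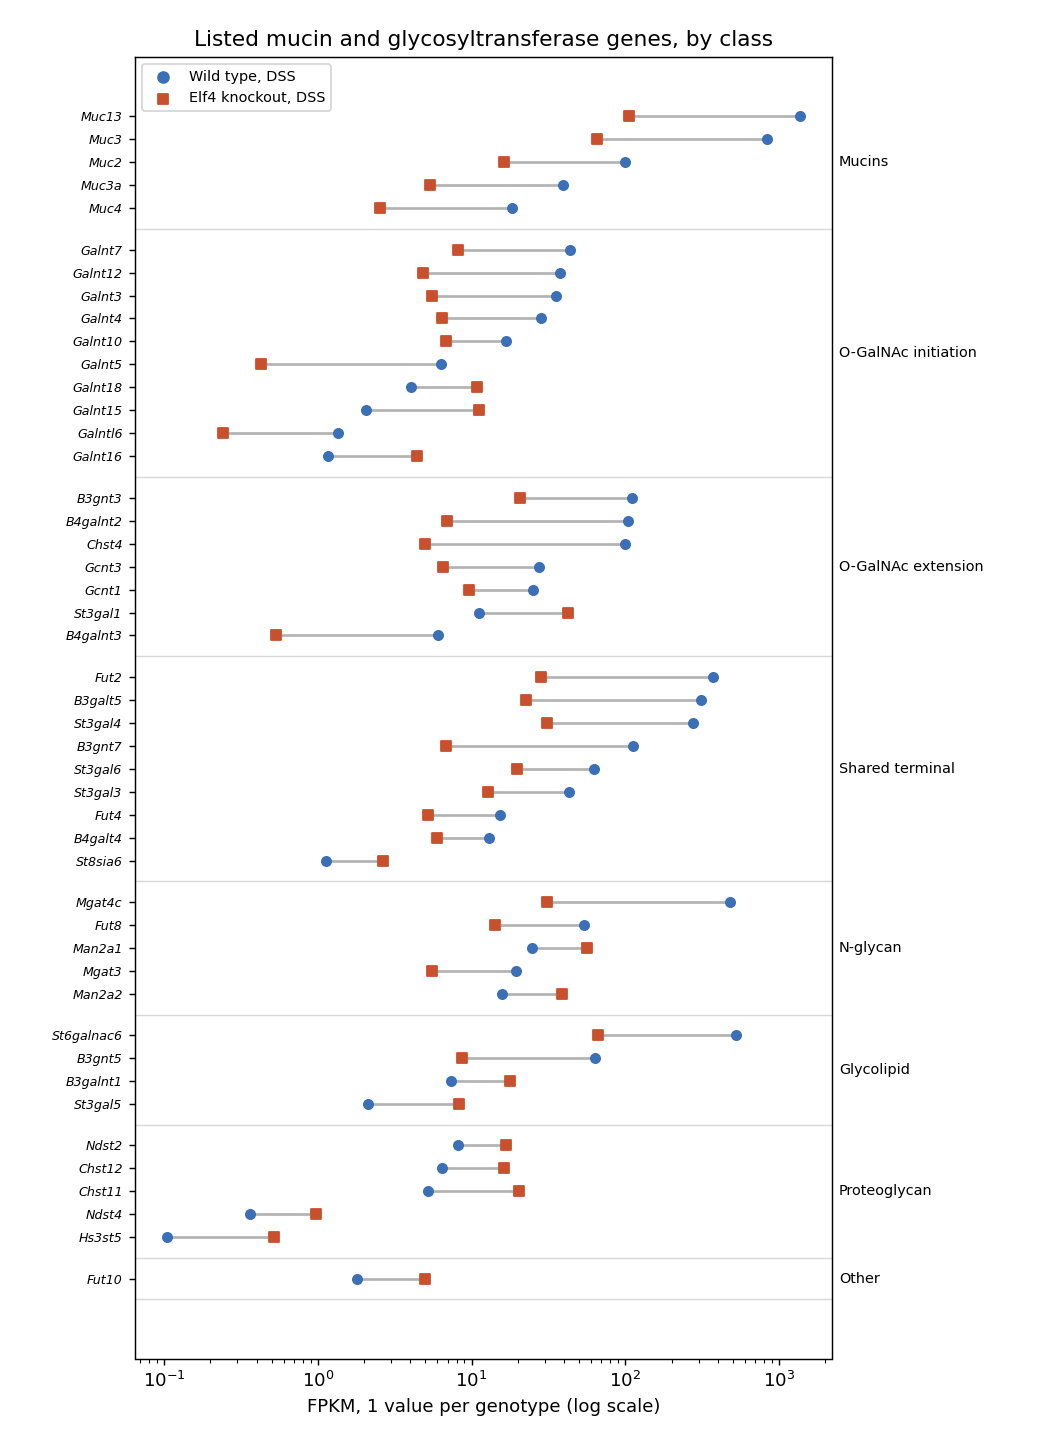
FPKM of each of the 46 listed members in wild-type (blue circles) and Elf4 knockout (orange squares) colon under DSS, on a log axis, with members grouped by class and 1 value per genotype. All 5 mucins lie to the left in the knockout, from 1377 to 106 FPKM for Muc13, while the 5 proteoglycan enzymes lie to the right.

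The tissue itself differed between the genotypes. Of 17 epithelial markers, 17 were listed and lower, with a summed level of 10227 FPKM in wild-type and 786 FPKM in knockout colon and none at 0. Epcam, which encodes an epithelial adhesion protein, fell 10.8-fold from 898 to 82.8 FPKM. Of 9 distal colon epithelium marker symbols 8 were in the annotation, and 7 were listed and lower. The labelled tissue was thus recognisable in both groups. Of 10 fibroblast markers 5 were listed and higher (summed 1062 and 4150 FPKM), and of 9 endothelial markers 8 were listed and higher (summed 99.5 and 326 FPKM). Of 10 neutrophil markers, 9 were listed, 7 higher and 2 lower (summed 1191 and 4067 FPKM). The 2 lower were Ly6g (854 to 146 FPKM), which made up most of the wild-type sum, and Ltf (14.4 to 2.05 FPKM). Of the remaining lists, macrophage markers (3 of 10 listed) and smooth muscle and enteric nerve markers (5 of 9) were higher, and T cell (5 of 7) and B cell markers (3 of 6) were lower. No listed marker was at 0. In bulk tissue, fewer cells of a type and less RNA per cell cannot be told apart, and the part of these shifts in the members' values was not tested. The labels do not say which part of Elf4 is deleted. The targeted gene, Elf4, an Ets family transcription factor, was at 16.4 FPKM in wild-type and 3.51 FPKM in knockout colon.

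All 5 listed mucin genes were lower in the knockout. Muc13, a membrane-bound mucin and the most abundant member in both genotypes, was at 1377 FPKM in wild-type and 106 FPKM in knockout colon, a 13.03-fold fall. Muc3, which encodes a large membrane mucin of the enterocyte brush border, fell 12.7-fold from 830.3 to 65.3 FPKM. Muc2, the gel-forming mucin of goblet cells, was at 100.2 FPKM in wild-type and 16.3 FPKM in knockout colon. Its 6.15-fold fall was the smallest of the 5. Muc3a fell from 39.5 to 5.40 FPKM and Muc4, a membrane mucin, from 18.2 to 2.53 FPKM, falls of 7.32-fold and 7.20-fold. The median log2 ratio of the 5 mucins was -2.66, and their summed level went from 2365 to 195 FPKM. Muc1, Muc5ac, Muc5b, Muc6, Muc15, Muc16 and Muc20 were not in the table.

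Where these genes lie bears on how far the values can be read. Muc2 is annotated on the plus strand at 7:141690340-141754693 (GRCm38), a span of 64.4 kb, but the locus in the table, 7:141744612-141754693, covers only the last 10.1 kb, so its level may not stand for the whole transcript. The table's locus for Muc13, 16:33684466-33819934, is 135 kb long against 25.9 kb in the annotation and also spans Heg1. The locus for Muc4, 16:32735886-32797435, reaches into Muc20. Muc3 (5:137134922-137149322) and Muc3a (5:137208813-137212389) are neighbours on the minus strand, 59.5 kb apart, with related sequence, and the split of reads between such copies is uncertain.

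To show the start regions of the most abundant mucin gene and of the gel-forming one, the RefSeq promoter windows (build GRCm38.p6, from 250 bases before to 50 bases after an annotated start) of Muc13 at chr16:33793787-33794086 and Muc2 at chr7:141690090-141690389, both plus strand, are printed 5′ to 3′. Muc13 has another window, which is not printed. Capitals mark GGAA and its reverse complement TTCC, the letters at the core of Ets family binding sites.
Muc13: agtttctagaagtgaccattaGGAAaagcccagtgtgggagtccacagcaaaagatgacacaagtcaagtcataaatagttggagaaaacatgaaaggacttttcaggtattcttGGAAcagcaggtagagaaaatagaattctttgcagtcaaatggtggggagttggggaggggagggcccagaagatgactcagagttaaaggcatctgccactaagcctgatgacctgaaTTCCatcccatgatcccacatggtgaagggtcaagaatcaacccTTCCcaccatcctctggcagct
Muc2: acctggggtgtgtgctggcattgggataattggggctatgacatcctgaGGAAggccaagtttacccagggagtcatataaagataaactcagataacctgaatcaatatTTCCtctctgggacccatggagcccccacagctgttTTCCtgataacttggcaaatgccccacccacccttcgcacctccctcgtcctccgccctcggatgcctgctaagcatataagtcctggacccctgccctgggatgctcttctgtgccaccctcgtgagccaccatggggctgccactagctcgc

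O-GalNAc initiation was represented by 10 of 19 polypeptide GalNAc transferase genes, of which 7 fell and 3 rose (median log2 ratio -1.57). The most abundant in wild type was Galnt7, at 43.5 FPKM and 8.12 FPKM in the knockout. Galnt12, an isoenzyme of the digestive tract, went from 37.8 to 4.85 FPKM, Galnt3 from 35.4 to 5.50 FPKM and Galnt4 from 28.3 to 6.45 FPKM. Galnt4, Galnt7 and Galnt10 act on peptides that already carry a GalNAc. Galnt10 showed the smallest fall in the family, 2.43-fold from 16.7 to 6.87 FPKM. Galnt5 showed the largest, 14.9-fold from 6.36 to 0.426 FPKM (with q = 0.000998 by the authors' deposited table). Galntl6 was the lowest in wild type of the 7 that fell, with 1.36 FPKM against 0.242 FPKM in the knockout (with q = 0.0202 by the authors' deposited table). The 3 isoenzymes that rose started from low levels. Galnt15 rose 5.45-fold from 2.05 to 11.1 FPKM, the largest rise of any member. Galnt16 rose 3.80-fold from 1.16 to 4.42 FPKM and Galnt18 rose 2.67-fold from 4.06 to 10.8 FPKM. A further gene of the family, annotated as Galnt17, stands in the table under its older symbol Wbscr17, which the rule does not match. It was higher, at 0.283 FPKM in wild-type and 0.945 FPKM in knockout colon (with q = 0.0155 by the authors' deposited table).

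The 10 listed isoenzymes summed to 177 FPKM in wild-type and 58.8 FPKM in knockout colon. Galnt17 and the genes of this family that the table does not hold are not in these sums. Galnt7, the highest in wild type, stood below Galnt15 and Galnt18 in the knockout. The table's locus for Galnt4, 10:99107036-99198074, spans Poc1b and Phxr2 and is 91.0 kb long against 5.09 kb for the annotated gene, and the locus for Galnt5 reaches into Ermn, so those values may hold reads of other genes.

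**Figure D2:**
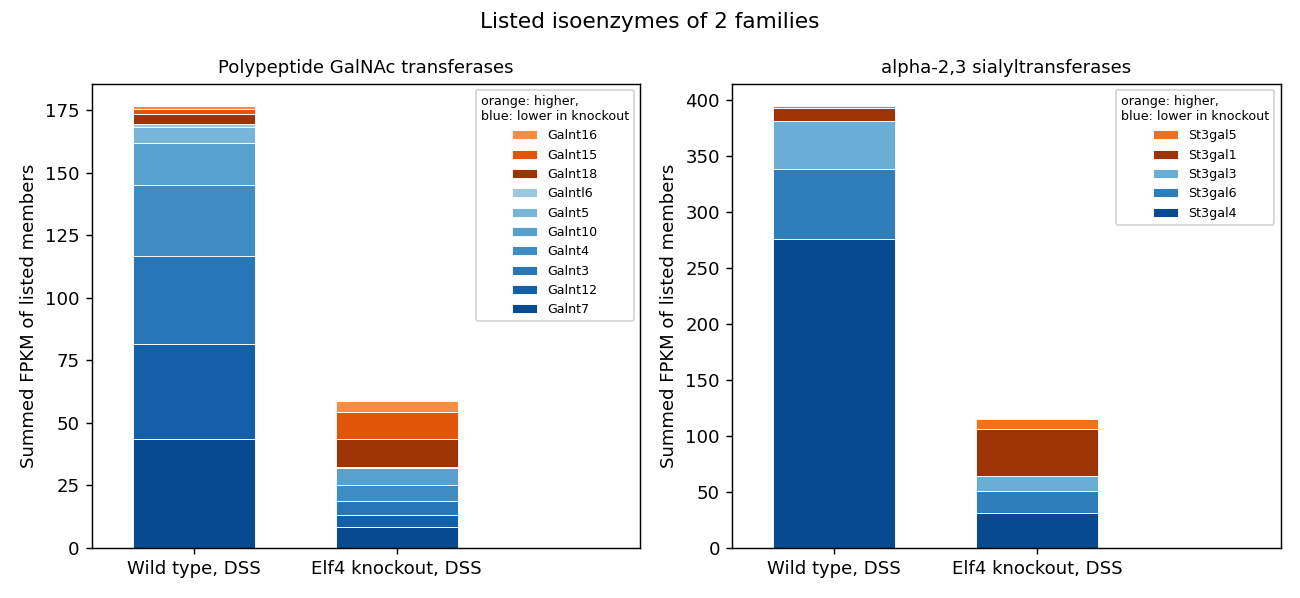
Summed FPKM of the listed polypeptide GalNAc transferases (left) and alpha-2,3 sialyltransferases (right) in wild-type and Elf4 knockout colon under DSS, as stacked bars with blue for isoenzymes lower in the knockout and orange for those higher. The sums fall from 177 to 58.8 FPKM and from 394 to 114 FPKM over the listed members only, without Galnt17. Blue and orange were set by the direction of change, so a larger orange share in the knockout follows from the colouring.

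Extension and capping of O-GalNAc chains was represented by 7 of 18 genes, 6 lower and 1 higher (median log2 ratio -2.20). Chst4, a sulfotransferase that adds sulfate to N-acetylglucosamine on mucin-type chains, showed the largest fall of all 46 members, 20.2-fold from 100.2 to 4.95 FPKM. B4galnt2, which makes the Sda antigen, a terminal structure of colon glycans, fell from 104.5 to 6.97 FPKM. The related B4galnt3 fell 11.3-fold from 6.09 to 0.538 FPKM. B3gnt3, which lengthens core 1 chains, fell 5.37-fold from 111 to 20.7 FPKM. The core 2 branching enzymes had smaller folds. Gcnt3, the mucin-type branching enzyme, was at 27.7 FPKM in wild-type and 6.48 FPKM in knockout colon, and Gcnt1 at 25.3 and 9.64 FPKM. St3gal1, which caps core 1 chains with sialic acid, was the exception and rose 3.78-fold from 11.2 to 42.4 FPKM. The locus given for it, 15:67102875-67113992, covers 11.1 kb of the 74.0 kb annotated gene. B3gnt6, the core 3 enzyme, and St6galnac1, which makes sialyl-Tn, were not in the table.

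The promoter window of Chst4, the member with the largest fall, is printed from RefSeq (GRCm38.p6, chr8:110039285-110039584, minus strand) with the same letters in capitals.
Chst4: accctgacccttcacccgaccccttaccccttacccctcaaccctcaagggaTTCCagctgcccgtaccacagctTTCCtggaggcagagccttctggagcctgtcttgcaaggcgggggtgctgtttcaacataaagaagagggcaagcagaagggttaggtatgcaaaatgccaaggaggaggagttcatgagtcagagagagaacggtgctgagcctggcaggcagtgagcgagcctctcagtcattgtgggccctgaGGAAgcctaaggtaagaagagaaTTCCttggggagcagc

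Enzymes that lengthen or cap chains on several carriers were mostly lower as well. Of 30 such genes 9 were listed, 8 lower and 1 higher (median log2 ratio -1.68). Fut2, which adds the alpha-1,2 fucose of secretor-type blood group antigens, fell 13.3-fold from 374 to 28.1 FPKM. B3galt5, which makes type 1 chains, fell 13.7-fold from 311 to 22.7 FPKM. B3gnt7, an enzyme of N-acetylglucosamine chain extension, fell 16.6-fold from 113 to 6.82 FPKM. These 3 were among the 12 members above 100 FPKM in wild type, and only Muc13 was above that level in the knockout. Fut4, a Lewis x fucosyltransferase also used by leukocytes, fell 2.95-fold from 15.4 to 5.24 FPKM, and the galactosyltransferase gene B4galt4 fell 2.16-fold from 12.97 to 5.99 FPKM (with q = 0.00519 by the authors' deposited table). St8sia6, an alpha-2,8 sialyltransferase, rose from 1.13 to 2.67 FPKM (with q = 0.00359 by the authors' deposited table). Fut7 and Fut9 were not in the table.

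Alpha-2,3 sialyltransferases moved in both directions. St3gal4 was at 275 FPKM in wild-type and 31.1 FPKM in knockout colon, St3gal6 at 62.7 and 19.9 FPKM, and St3gal3 at 43.1 and 12.8 FPKM. These 3 act mainly on lactosamine ends. St3gal1 and St3gal5, which act on core 1 chains and on lactosylceramide, rose. The 5 genes summed to 394 FPKM in wild-type and 114 FPKM in knockout colon. St3gal2, the remaining gene of the family, was not in the table. St3gal1 was the highest of the 5 in the knockout, at 42.4 FPKM, where St3gal4 had been the highest in wild type. The table's loci for St3gal4 and St3gal6 also span Dcps and Dcbld2.

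Of 23 N-glycan genes, 5 were listed (21.7%, near the 17.4% of all protein-coding genes), with 3 lower and 2 higher (median log2 ratio -1.66). Those that fell add sugars and those that rose remove them. Mgat4c, a homologue of the enzymes that add an N-acetylglucosamine branch, fell 15.4-fold from 478 to 31.0 FPKM and was the fourth most abundant member in wild type. Its annotated gene, 10:101681487-102391469, is 710.0 kb long, and the table's locus equals it. Fut8, the core fucosyltransferase, was at 53.9 FPKM in wild-type and 14.2 FPKM in knockout colon. Mgat3, which adds the bisecting N-acetylglucosamine, was at 19.5 and 5.49 FPKM. Golgi alpha-mannosidases II, encoded by Man2a1 and Man2a2, remove mannose before the second branch is added. Man2a1 rose 2.28-fold from 24.9 to 56.7 FPKM and Man2a2 rose 2.47-fold from 15.7 to 38.8 FPKM. These 2 genes were at places 24 and 28 among the 46 members by wild-type FPKM and at places 4 and 6 in the knockout. The table's locus for Man2a2 also spans Hddc3. Mgat1, Mgat2, Mgat5 and St6gal1 were not in the table.

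Glycolipid enzymes were divided, with 2 of 4 listed genes lower (median log2 ratio -0.79). St6galnac6, a sialyltransferase of gangliosides that also makes disialyl Lewis a in colon, fell 7.94-fold from 525 to 66.2 FPKM. B3gnt5, which starts lacto-series glycolipids, fell 7.36-fold from 63.7 to 8.65 FPKM. St3gal5, the GM3 synthase, rose 3.87-fold from 2.13 to 8.27 FPKM. B3galnt1, the globoside synthase, rose 2.42-fold from 7.40 to 17.9 FPKM.

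Enzymes that modify proteoglycan chains were higher in the knockout, 5 of the 5 listed among 25 annotated (20% listed, near the share of all protein-coding genes; median log2 ratio 0.96). Chst11 and Chst12 put sulfate on position 4 of the N-acetylgalactosamine in chondroitin. Chst11 was at 5.18 FPKM in wild-type and 20.5 FPKM in knockout colon, a 3.96-fold rise, and Chst12 at 6.40 and 16.3 FPKM (with q = 0.00128 by the authors' deposited table). Ndst2, an N-deacetylase and N-sulfotransferase of heparan sulfate and of mast cell heparin, rose 2.06-fold from 8.11 to 16.7 FPKM (with q = 0.00156 by the authors' deposited table). The other two were near the lower end of the table's range. Ndst4 was at 0.363 and 0.970 FPKM (with q = 0.0331 by the authors' deposited table). Hs3st5, a heparan sulfate 3-O-sulfotransferase gene, was at 0.104 and 0.522 FPKM (with q = 0.0363 by the authors' deposited table). With q of at most 0.01, or with a minimum of 1 FPKM in either genotype, 3 of these 5 were left. Ndst1, Hs2st1 and Hs6st1 were not in the table. Fut10, a fucosyltransferase gene outside these classes, rose 2.77-fold from 1.80 to 4.98 FPKM (with q = 0.00359 by the authors' deposited table).

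As a member that rose, Chst11 is shown by its RefSeq promoter window (GRCm38.p6, chr10:82985247-82985546, plus strand).
Chst11: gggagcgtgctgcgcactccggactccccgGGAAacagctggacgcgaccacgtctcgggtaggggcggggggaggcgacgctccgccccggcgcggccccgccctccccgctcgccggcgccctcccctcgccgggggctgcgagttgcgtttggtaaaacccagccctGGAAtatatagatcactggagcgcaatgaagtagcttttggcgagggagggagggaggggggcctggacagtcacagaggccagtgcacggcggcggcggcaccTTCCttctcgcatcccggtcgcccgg

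**Figure D3:**
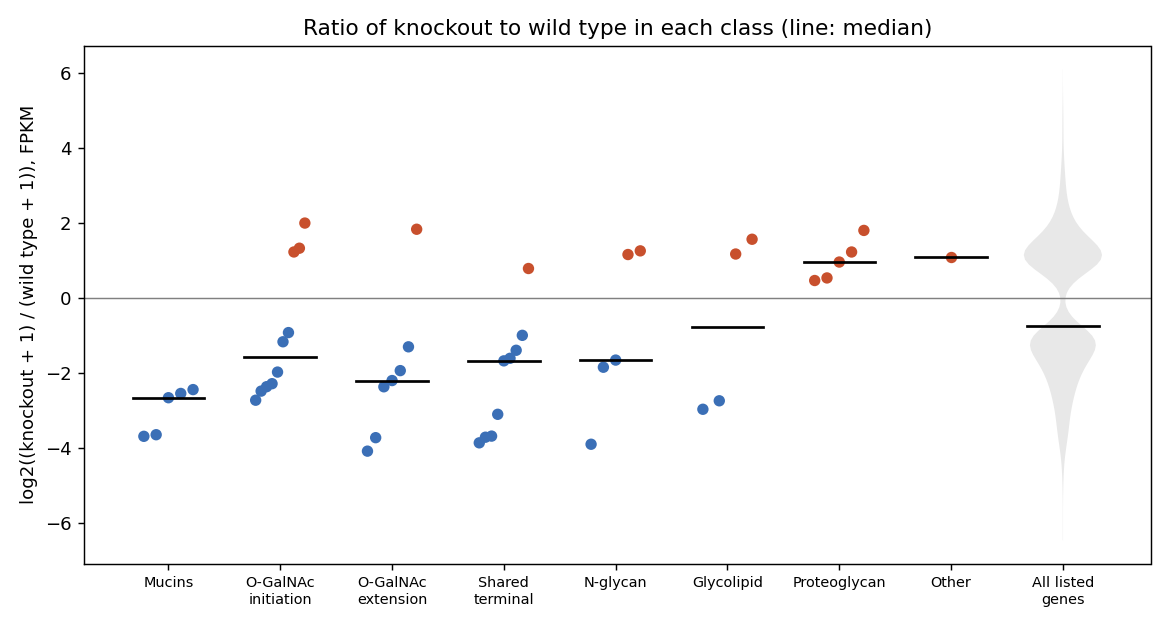
Log2 ratio of knockout to wild-type FPKM, after adding 1 to both, for each member (points, blue lower and orange higher) by class, with the class median as a black line and all 4121 listed genes as a grey violin. The median is -2.66 for mucins and 0.96 for proteoglycan enzymes, and Fut10 alone in the other class is at 1.10, beside -0.76 for all listed genes.

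The 31 lower members had a median of 43.5 FPKM in wild-type and 6.97 FPKM in knockout colon, and the 15 higher members a median of 4.06 and 11.1 FPKM. The lower members were thus the more abundant in wild type and the less abundant in the knockout, an order that the direction of change itself favours. Of the 31 members above 10 FPKM in wild type, 28 fell and 3 rose, and of the 15 higher members 9 were above 10 FPKM in the knockout. Over the whole table, the median wild-type level was 23.8 FPKM for lower genes and 4.47 FPKM for higher genes.

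Set beside the epithelial markers, most members fell by less. The 17 markers fell by a median of 11.7-fold, from 2.60-fold to 19.4-fold. Of the 31 lower members, 28 lay within that range, and 9 exceeded the marker median. Chst4 lay above the whole range, and Galnt10 and B4galt4 lay below it. Expressed per Epcam, Chst4 went from 0.112 to 0.0598 and B3gnt7 from 0.126 to 0.0824, so both fell by more than Epcam did. Muc13 per Epcam was 1.53 in wild type and 1.28 in the knockout, and Muc3 per Epcam 0.925 and 0.789. Muc2 per Epcam was 0.112 and 0.197, so Muc2 fell by less than Epcam. Of the 31 lower members, 10 fell by more than Epcam and 21 by less. Whether these ratios differ beyond error was not tested.

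**Figure D4:**
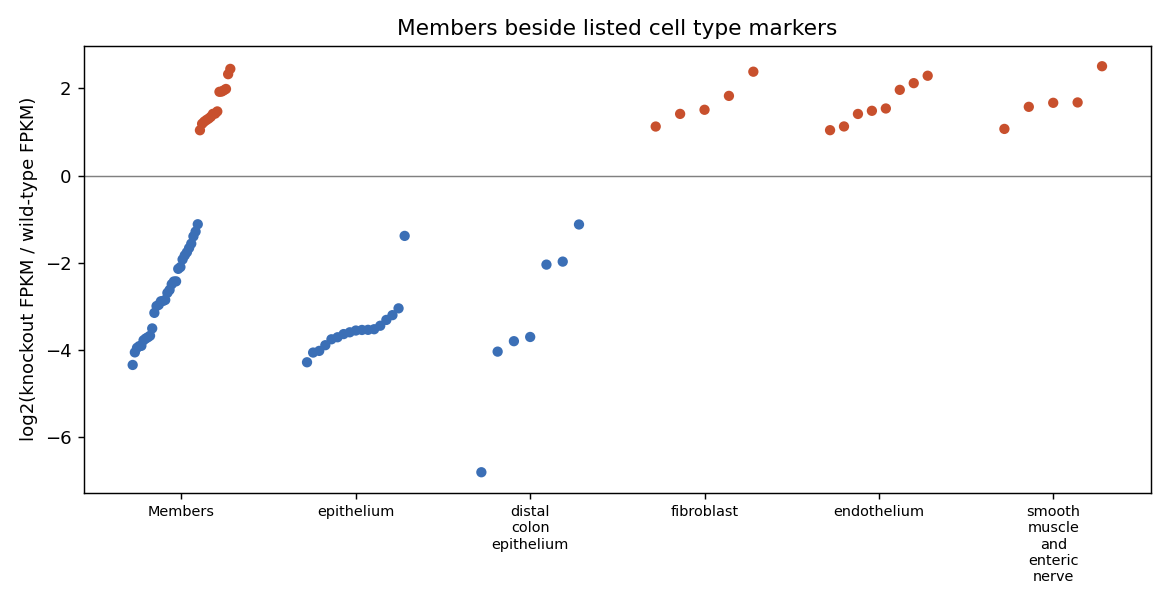
Log2 ratio of knockout to wild-type FPKM for the 46 members and for the listed markers of 5 cell types or regions, each point a gene (blue lower, orange higher). The lower members overlap the epithelial markers, which fell by 2.60-fold to 19.4-fold. The 15 higher members rose by 2.06-fold to 5.45-fold, and the listed fibroblast and endothelial markers by 2.06-fold to 5.21-fold. Every listed gene differed at least 2-fold by the authors' call, so the lower end of each range was set in advance.

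Partner genes of these pathways, outside the member families, were counted in the same way. Of 22 gene symbols for O-glycan core synthesis and for supply of sugar nucleotides and sulfate donors, 21 were in the annotation. Of these, 16 were listed and 16 fell (median log2 ratio -2.30). Gmds, the first enzyme of GDP-fucose synthesis, fell from 438 to 36.5 FPKM, and Gne, which starts sialic acid synthesis, from 166 to 14.2 FPKM. Of 23 genes for mucus assembly and goblet cells, 22 were listed and 22 fell (median -2.65). The largest fold was that of Nlrp6, an epithelial sensor gene, which fell 35.2-fold from 37.2 to 1.06 FPKM. Spink4 and Agr2, both goblet cell genes, fell 31.0-fold and 27.6-fold. Of 32 genes that build, transfer or first trim the N-glycan precursor, 9 were listed, 8 lower and 1 higher (median -1.18). Alg6 fell from 11.7 to 3.46 FPKM, Alg9 from 18.8 to 6.05 FPKM and Dpagt1 from 48.7 to 17.5 FPKM, all of them enzymes of precursor assembly.

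Proteoglycan genes outside the member families were mostly higher. Of 30 core protein genes 13 were listed, 12 higher and 1 lower (median log2 ratio 1.37). Esm1, an endothelial proteoglycan, rose 17.1-fold from 1.53 to 26.2 FPKM. Dcn, the dermatan sulfate proteoglycan decorin and also a fibroblast marker, rose 5.21-fold from 533 to 2778 FPKM. Col18a1, a heparan sulfate-bearing collagen, rose 4.26-fold from 42.5 to 181 FPKM. Of 26 genes for chain polymerases, epimerases and sulfatases 7 were listed, 6 higher and 1 lower (median 0.95). Chpf2, a chondroitin polymerizing factor, rose from 11.4 to 30.4 FPKM (with q = 0.00238 by the authors' deposited table) and Sulf1, a heparan sulfate 6-O-endosulfatase, from 18.3 to 39.9 FPKM. Fam20b, the xylose kinase of the linker region, fell from 34.5 to 13.3 FPKM.

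**Figure D5:**
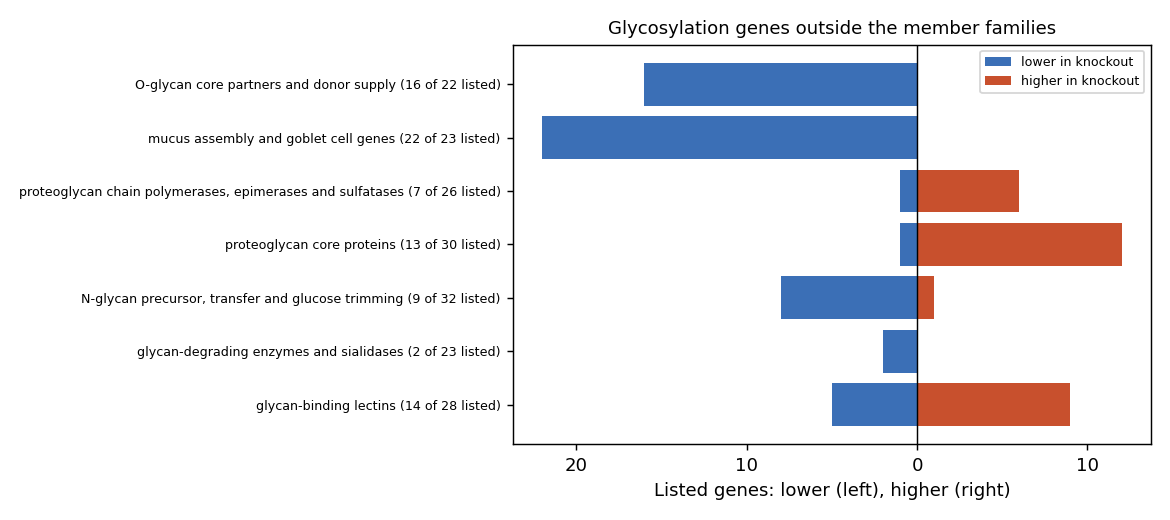
Number of listed genes lower (blue, left) and higher (orange, right) in the Elf4 knockout in 7 lists of glycosylation genes outside the member families. Donor supply and mucus assembly lie wholly to the left, with 16 and 22 genes, and proteoglycan core proteins mostly to the right, with 12 of 13.

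The members lie on many chromosomes. The 6 on chromosome 16 (Muc4, Muc13, B3gnt5, B4galt4, St3gal6 and B3galt5) all fell, beside 31 lower of all 46 members. Muc4 and Muc13 lie 887 kb apart. The directions of all listed genes on chromosome 16 were not counted, so the 6 are not read as a group. On chromosome 8, Galnt7 and Galntl6 lie 111 kb apart and both fell. The table's locus equalled the GENCODE M21 gene for 29 members and differed for 17, and for 9 it also overlapped another protein-coding gene. No member's locus overlapped that of another listed gene.

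Promoter windows were found for 35 members, 25 lower and 10 higher. The short letters GGAA, searched on both strands, occurred in 34 of the 35, beside 96.5% of all 27025 genes with a window. The exception was St3gal5, which rose. The windows of Muc13, Muc2, Chst4 and Chst11 printed in full with the genes hold the letters 4, 3, 4 and 3 times. Another window of Muc13, chr16:33794239-33794538, is not printed and holds them 2 times. The longer Ets site CCGGAAGT (reverse complement ACTTCCGG), which contains GGAA, occurred in 0 of the 35 members and in 4.31% of all genes with a window. For so rare a site, 35 genes are too few to compare with that share. These counts describe letters in windows of 300 bases and say nothing of binding.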

How the data were processed

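Bowtie 0.12.2, Cufflinks 2.2.1 and genome build mm8 are named, without roles, in the submitters' processing notes. Per the file headers, the authors deposited 1 FPKM value per gene and genotype, with the p-value and q-value of their own comparison. How both samples of a genotype were combined, and whether they came from separate animals, is stated neither in the labels nor in the header.

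Of 4121 gene identifiers 4116 were found in GENCODE M21, 76.8% with an equal end and 77.5% with an equal start after adding 1. Coordinates are therefore printed on GRCm38, counting from 1. Folds are ratios of FPKM. Log2 ratios were computed after adding 1 to both values. Promoter windows come from RefSeq (GRCm38.p6).

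The members, classes and gene lists were chosen with earlier results of these data known. Every listed member is named. From each list, the 3 genes with the largest absolute log2 ratio and at least 1 FPKM in the higher group are named, or all where 5 or fewer were listed, except where a gene is not reported here. Alternatives were a q of at most 0.01, FPKM minimums of 1 and 5, other pseudocounts, centring, other classes and leaving out members by locus. Python 3.11.15, numpy 2.4.6, pandas 2.3.3 and matplotlib 3.10.9 were used.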

Additional observations from a re-analysis of the deposited data

How the results depend on the processing

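No paired analysis was possible because both samples of a genotype share 1 deposited value, and for the same reason leaving out each sample was not run. Values were taken as moved past 1.5 times. No median and no single-gene ratio changed sign, though only centring could change the sign of a single gene's ratio. Counts of lower and higher genes followed the FPKM values under every setting and could not reverse. Of 289 summary values recomputed, 267 stayed within that limit, as did 407 single-gene values beside 33 that did not. Many of these could not move. A single gene's ratio does not depend on which other genes are kept or how they are classed, so only pseudocounts and centring could alter it. Centring moved 23 single-gene values and left 23, a pseudocount of 0 moved 6 and a pseudocount of 0.1 moved 4. No member shared a locus with another listed gene, so leaving such members out changed nothing. The count of members at least 4-fold higher went from 2 to 1 with a q of at most 0.01 and with minimums of 1 and 5 FPKM. Higher proteoglycan enzymes went from 5 to 3 under the same settings, and the higher shared enzyme, St8sia6, was lost (0) at 5 FPKM. Centring on the table median of -0.76 gave medians of -1.01 for all members, -0.82 for O-GalNAc initiation, -1.45 for extension, -1.22 for both together, -0.92 for shared enzymes, -0.90 for N-glycan enzymes, -0.030 for glycolipid enzymes and 1.71 for proteoglycan enzymes. Counting shared enzymes with O-GalNAc enzymes gave 21 lower instead of 13, and moving glycolipid enzymes to the shared class gave 3 higher there and left 0 lower and 0 higher. Leaving out the 9 members whose locus overlaps another protein-coding gene, chosen after seeing the data, left 3 lower mucins, 4 lower O-GalNAc initiation genes and 1 higher N-glycan enzyme, by construction fewer.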

Other observations

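Genes for glycan recognition and breakdown were not described above. Of 28 symbols of glycan-binding lectin genes, 27 were in the annotation. Of these, 14 were listed, 9 higher and 5 lower in the knockout, with a median log2 ratio of 1.31. By log2 ratio after adding 1, the largest changes were falls of epithelial lectins. Lgals4, an intestinal galectin and also an epithelial marker, fell from 2431 to 196 FPKM, the antibacterial lectin gene Reg3g from 171 to 12.4 FPKM, and its relative Reg3b from 351 to 41.5 FPKM. Further genes are named here in view of their values. Lgals12 fell 28.1-fold from 4.97 to 0.177 FPKM, the largest fold of the 14. The sialic acid-binding receptors of myeloid cells Cd33 (5.05 to 45.8 FPKM), Siglece (3.46 to 17.7 FPKM) and Siglec1 (1.96 to 10.5 FPKM) rose. Selp and Sele, which bind sialylated and fucosylated glycans on leukocytes, also rose, to 60.5 and 5.49 FPKM.

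Of 23 symbols of glycan-degrading enzyme genes, 22 were in the annotation and 2 were listed, both fucosidases. Fuca1 fell from 157 to 38.0 FPKM and Fuca2 from 79.8 to 22.1 FPKM. Over all listed genes with a promoter window, CCGGAAGT on either strand was found in 78 of 1528 lower genes (5.10%). Among higher genes it was found in 16 of 1396 (1.15%). None of the 35 members with a window held it, but 35 genes are too few to compare for so rare a site. Whether these shares differ was not tested.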
